A study of Daphnia sinensis with 8 samples.

Results

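Males (M) of the water flea *Daphnia sinensis* were compared with juvenile females (JF) in 4 poly-A RNA libraries, 2 of each stage, out of 8 libraries in the whole series. The members were taken from the sample labels alone. A JF library held about 500 juveniles born less than 12 h before, released by mothers that were each kept singly in a beaker. An M library held about 60 males, which had been picked as juveniles once beakers with several mothers had become denser and were then reared apart for 2 weeks, and the labels give their age as 2 to 3 weeks. The remaining 4 libraries, which are set beside them here, came from adults of such denser beakers with the same labelled age: parthenogenetic females (PF, asexual adults with a first clutch of eggs) and sexual females (SF, adults with resting eggs), about 50 animals each. The animals were collected from a lake and cultured in the laboratory with a green alga as food. Whether the mothers belonged to a single clone is not stated. Sex, age and culture all differ between M and JF and cannot be told apart in M vs JF. The paper also describes males as animals within 12 h of birth, which goes against its own rearing time. The labels number the 2 libraries of a stage as replicates without saying whether the pools came from separate cultures. The p-values thus measure only the spread between pools. That spread was estimated from all 8 libraries in 1 fit, so the scatter within PF and within SF also enters the standard errors and p-values of M vs JF.

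*Daphnia* mothers produce genetically identical daughters and sons, and sex is set by the environment of the mother. Male traits in *D. magna* depend on *Doublesex1*, a transcription factor with a DM domain, a DNA-binding domain shared by many sex regulators of animals. Water fleas shed and rebuild their chitin cuticle throughout life, with chitin synthase making the polymer and chitinases cutting it. Trypsins and related serine proteases cut proteins and are major gut enzymes of *Daphnia*.

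The reads were assembled without a genome, and the count files name each assembled unigene by a cluster number only. In the paper most best matches were to *Daphnia* species, but a small part were to ciliates such as *Tetrahymena thermophila*. A unigene without a name may thus come from another organism, which was not tested. Names of best matches in other species were given by the study for 36 unigenes, of which 28 were among the 11114 unigenes of the files and 8 were not analysed here. The sequences held here are the qPCR primers of these unigenes. The primer pairs of 5 unigenes are shown, because these 5 carry the adult female patterns described further on. They identify the transcripts and played no part in the counts. Each is written 5′ to 3′ in lower case throughout, because no part of a primer is singled out.
Doublesex2 (Cluster-5789.12340), forward: atagcattgaatcctgtgaag
Doublesex2 (Cluster-5789.12340), reverse: cataccttgtgacctctga
Chitin synthase 2 (Cluster-5789.11830), forward: ctccatcgcttcctgtta
Chitin synthase 2 (Cluster-5789.11830), reverse: gcatcgttcgttcatcaa
Trypsin-7-like protein (Cluster-5789.9553), forward: gtggtgtcgtagttctca
Trypsin-7-like protein (Cluster-5789.9553), reverse: aatgtcaggtttgttcaatct
Uncharacterized protein (Cluster-5789.11701), forward: ttcagcagcatcaacaac
Uncharacterized protein (Cluster-5789.11701), reverse: agcaatcagacgaacaga
Uncharacterized protein (Cluster-5789.11654), forward: agcgaccaatacgaatct
Uncharacterized protein (Cluster-5789.11654), reverse: cagaccgttgtaaccaatc

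The total count was between 17172891 and 27160267 over the 8 libraries, and no unigene of the files had a count of 0 in any library. A unigene without reads in M or in JF is therefore outside these data. Both M libraries were much more alike than those of any female stage. Among unigenes above 20 CPM (each count scaled to a common library size by edgeR's TMM method), the median absolute log2 ratio between replicates was 0.04 in M and 0.15 in JF. No unigene of M and 192 of 5735 unigenes of JF differed more than 2-fold between replicates. Among those 192, JF replicate 2 was the higher library for 82. Against counting noise alone, for which a chi-square per degree of freedom would be near 1, the M libraries gave 1.89 over 10376 unigenes and the JF libraries 65.2 over 10497. The M libraries thus differed by more than counting noise but by little, and whether they came from separately reared males is not stated. With both summed into a single library, 1242 unigenes were higher and 1365 lower in males, in place of the 1467 and 1686 given next for the 2 libraries. The root mean square log2 difference over all tested unigenes was 0.28 within M and 0.48 within JF. Between an M and a JF library it was 1.29 to 1.32, against 1.13 to 1.28 between M and SF libraries and 1.53 to 1.65 between M and PF libraries.

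Males had 1467 unigenes at a higher level than juvenile females and 1686 at a lower level. Such a differentially expressed gene (DEG) had to pass edgeR's quasi-likelihood test (adjusted p below 0.05, Benjamini-Hochberg) and to differ more than 2-fold. The calls made up 29.1% of the 10822 tested unigenes, 13.6% up-regulated and 15.6% down-regulated. The libraries are whole animals, so fewer cells of a type and less RNA per cell cannot be told apart. M and JF libraries did not overlap for any of these DEGs, but this also held for 83.4% of all tested unigenes. The balance of directions depended on the threshold, the scaling and the libraries fitted. With the 2-fold threshold inside the test (edgeR's glmTreat), 52.9% of the DEGs were up-regulated, and with the adjusted p alone 42.0% were. Up-regulated unigenes were 46.5% of the DEGs in the fit of all 8 libraries and 56.9% in a fit of the 4 libraries of M and JF alone. Over every unigene tested, the log2 fold change had a median of -0.14 in the former and -0.00392 in the latter. The share was also above 50%, from 55.0% to 55.2%, without PF replicate 1, SF replicate 1 or SF replicate 2. A further 440 unigenes changed more than 2-fold without passing the adjusted p, and 2419 passed it with a smaller change.

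Changes were larger in the male direction. The median log2 fold change was 1.82 among up-regulated DEGs (quartiles 1.33 and 2.76) and -1.496 among down-regulated DEGs (quartiles -1.94 and -1.21). More than 16-fold higher in males were 151 unigenes (1.4% of those tested), whereas 26 (0.24%) were more than 16-fold lower. Past 64-fold, 15 unigenes were higher and 7 were lower in males. The counts past 16-fold lay between 142 and 175 for higher and between 24 and 28 for lower unigenes when any 1 library was left out. At these sizes the counts of the lower stage were seldom at the limit of counting, but unigenes with a count of 0 in any library were absent from the data. In only 2 of the 151 higher unigenes did a JF library hold at most 3 counts, and in 4 of the 26 lower unigenes an M library did.

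**Figure D1:**
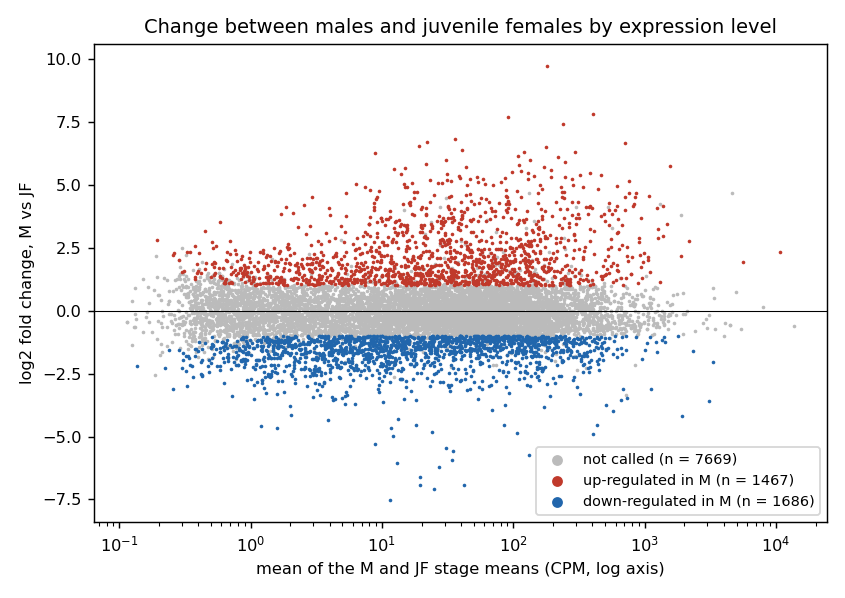
Each point is 1 of the 10822 tested unigenes, with the mean of its M and JF stage means in CPM on a log axis against its log2 fold change in M vs JF. Red points (1467) are unigenes higher in males, blue points (1686) are lower and grey points were not called. The red points reach farther from 0 than the blue ones.

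The DEGs were found at all expression levels. CPM is not divided by unigene length here, so the levels are those of reads and do not order transcripts by molecules. Of the unigenes with a mean over M and JF of 10 to 100 CPM, 682 of 4764 were higher in males and 654 lower. At 100 to 1000 CPM these numbers were 350 and 331 of 2251 unigenes, and at 1000 CPM and over they were 16 and 14 of 111. At 1 to 10 CPM the down-regulated unigenes were more numerous, with 570 against 338 up-regulated of 2612 (21.8% and 12.9%), and they remained more numerous with DESeq2 size factors (502 against 389) and on the 4 libraries alone (490 against 429). Under 1 CPM, where the median standard error of the log2 fold change was 0.46 against 0.15 at 100 to 1000 CPM, 81 of 1084 were higher and 117 lower in males. These last counts depended on single libraries. The up-regulated count under 1 CPM was 30 without M replicate 1, 37 without M replicate 2 and 38 without JF replicate 2. The down-regulated count was 38 without M replicate 1, 61 without M replicate 2, 71 without JF replicate 1 and 57 without JF replicate 2. Changes past 16-fold in the male direction were met mainly at 10 to 100 CPM (72 unigenes) and at 100 to 1000 CPM (61 unigenes).

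**Figure D2:**
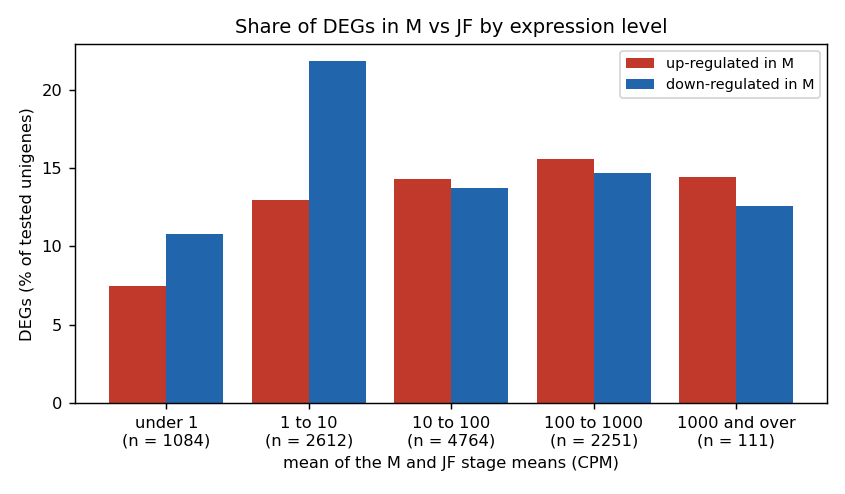
Bars give the share of tested unigenes (%) higher (red) or lower (blue) in males than in JF, by the mean of the M and JF stage means in CPM. Both directions lie between 12.6% and 15.5% from 10 CPM upwards, and the highest bar is the 21.8% of down-regulated unigenes at 1 to 10 CPM.

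The DEGs stood for a large part of the reads. Up-regulated unigenes held 25.9% and 26.1% of the counts of the M libraries and 5.54% and 5.61% of those of the JF libraries. Down-regulated unigenes held 19.2% and 20.4% in JF and 6.23% in each M library. Both sets were chosen by the difference between M and JF in these same libraries. The gap between M and JF is set by that choice, which also favours other stages lying between, so no test was made. The adult females lay between in both directions, with 10.8% and 11.4% in PF and 17.5% and 12.9% in SF for the up-regulated unigenes. For the down-regulated unigenes the share was 8.85% and 9.57% in PF and 9.05% and 9.66% in SF. Few unigenes carried these shares, but counts were concentrated in whole libraries too. The 100 highest unigenes of a library held 22.8% and 22.7% of all counts in M and 22.6% and 21.9% in JF. In M replicate 1 and 2, 84 and 83 of the 1467 up-regulated unigenes held 50% of the counts of the set, and in JF replicate 1 and 2, 110 and 108 of the 1686 down-regulated unigenes did.

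**Figure D3:**
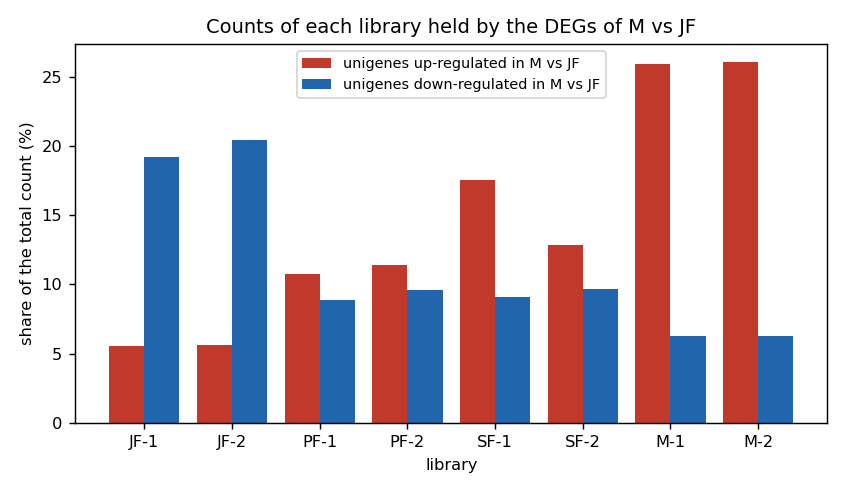
Bars give, for each of the 8 libraries, the share of its total count (%) held by the unigenes higher (red) or lower (blue) in males than in JF. The red share is at most 5.61% in JF and at least 25.9% in M, and for both sets the PF and SF libraries lie between JF and M. The sets were chosen by the difference between these M and JF libraries.

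The most abundant unigenes of M and JF overlapped in part. Of the 20 unigenes with the highest mean in M, 12 were also among the 20 highest in JF, and of the 100 highest 46 were. Of the 100 with the highest level over both stages, 15 were higher and 12 lower in males, which is 27% called, near the 29.1% over all tested unigenes. The 4 highest that were not called had small or moderate changes. Cluster-5789.6231 had 11479 and 10313 CPM in M and 18194 and 14892 CPM in JF, a log2 fold change of -0.60 (standard error 0.24, adjusted p = 0.0726). For Cluster-5789.6242 the log2 fold change was 0.13 (standard error 0.18, adjusted p = 0.557), with 8351 and 8302 CPM in M and 8060 and 7112 CPM in JF. Cluster-5789.6235 (-0.75) and Cluster-5789.6290 (0.73) passed the adjusted p and missed the fold change threshold.

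The up-regulated unigenes with the largest gain in CPM were already abundant in juveniles, except for Cluster-5789.2237. Cluster-5789.6398 was the most abundant unigene of males, with 17770 and 17939 CPM in M and 2022 and 5113 CPM in JF. Its log2 fold change was 2.32 (standard error 0.56, adjusted p = 0.0157), and the PF libraries had 9984 and 10179 CPM and the SF libraries 11184 and 4776 CPM. Both M libraries were above all others, although the JF libraries were far apart. Cluster-5789.8376 had 8822 and 8943 CPM in M and 1186 and 3444 CPM in JF (log2 fold change 1.94, standard error 0.49, adjusted p = 0.0188), and it was highest in PF with 16818 and 15059 CPM. The calls of Cluster-5789.6398 and Cluster-5789.8376 were lost without either M library, with adjusted p from 0.0591 to 0.0693. With any 1 library left out, the log2 fold change was 1.80 to 3.14 for Cluster-5789.6398 and 1.37 to 2.90 for Cluster-5789.8376. The upper values were those without JF replicate 2. Cluster-5789.9717 had 3773 and 3786 CPM in M and 407 and 691 CPM in JF, a log2 fold change of 2.78 (standard error 0.55, adjusted p = 0.00795).

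Cluster-5789.2237 was low in juveniles and among the most abundant unigenes of males. Its values were 56.6 and 59.3 CPM in JF, 3063 and 3093 CPM in M, and a log2 fold change of 5.73 (standard error 0.81, adjusted p = 0.00246). PF was at the juvenile level with 45.9 and 48.6 CPM. The SF libraries were apart from each other, with 2331 CPM in replicate 1 and 466 CPM in replicate 2.

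In the other direction, the 4 down-regulated DEGs with the largest losses in CPM are given. Cluster-5789.6231, which was not called, fell from a mean of 16543 CPM in JF to 10896 CPM in M. Cluster-5789.6177 had 5516 and 5902 CPM in JF and 483 and 474 CPM in M, a log2 fold change of -3.58 (standard error 0.62, adjusted p = 0.00482). All 4 adult female libraries were below males, at 66.9 and 61.1 CPM in PF and 308 and 79.8 CPM in SF. The same order was seen for Cluster-5789.6752, with 2555 and 4780 CPM in JF, 205 and 203 CPM in M, 57.3 and 50.4 CPM in PF and 136 and 92.1 CPM in SF (log2 fold change -4.17, standard error 0.36, adjusted p = 0.000352). Cluster-5789.6279 fell from 3503 and 3473 CPM in JF to 1173 and 1146 CPM in M (log2 fold change -1.59, standard error 0.11, adjusted p = 0.000197), and to 156 CPM in each PF library and 349 and 304 CPM in SF. For these 3 unigenes males lay between juveniles and adult females. Cluster-5789.6202 had 5206 and 5408 CPM in JF and 1289 and 1301 CPM in M (log2 fold change -2.03, standard error 0.15, adjusted p = 0.000214), with 1283 and 1575 CPM in PF, close to males, and 2754 and 2319 CPM in SF.

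The largest fold changes were those of unigenes with few reads in a stage. Cluster-5789.11799 rose most, from 0.628 and 0.261 CPM in JF to 359 and 366 CPM in M. These JF values were counts of 12 and 7, which gave a ratio of 877 between the summed counts with a 95% interval of 561 to 1457 (exact binomial, counting error only) and an edgeR log2 fold change of 9.72 (standard error 0.73, adjusted p = 0.00032). In PF it had 30.8 and 17.3 CPM and in SF 6.26 and 2.53 CPM, so that all adult females were above juveniles and far below males. Cluster-5789.1259 had 1.99 and 5.06 CPM in JF and 814 and 788 CPM in M, a log2 fold change of 7.81 (standard error 0.52, adjusted p = 0.000199). PF was at 62.5 and 65.3 CPM and SF at 171 and 251 CPM, in the order juveniles, PF, SF, males, whereas SF was below PF for Cluster-5789.11799. Without JF replicate 1 the log2 fold change of Cluster-5789.11799 was 10.41, and without JF replicate 2 that of Cluster-5789.1259 was 8.65.

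The unigenes that fell most were nearly silent in males and present in every female library. Cluster-5789.9842 had 19.3 and 26.7 CPM in JF and 0.173 and 0.0528 CPM in M, the latter from counts of 4 and 1. The summed counts were 199-fold lower in males with a 95% interval of 84.8 to 613 (counting error only), and the log2 fold change was -7.54 (standard error 0.37, adjusted p = 7.59e-05). Cluster-5789.4224 had 46.7 and 52.9 CPM in JF and 0.346 and 0.369 CPM in M (log2 fold change -7.10, standard error 0.31, adjusted p = 6.56e-05). Adult females were above juveniles for it, with 789.9 and 496 CPM in PF and 495 and 478 CPM in SF. Cluster-5789.4226 and Cluster-5789.8464 followed the same order. Cluster-5789.4226 had 87.3 and 80.1 CPM in JF, at most 0.844 CPM in M and at least 490.4 CPM in each adult female library (log2 fold change -6.95, standard error 0.33, adjusted p = 6.89e-05). Cluster-5789.8464 had 38.4 and 38.9 CPM in JF, at most 0.475 CPM in M and at least 248 CPM in each adult female library (log2 fold change -6.92, standard error 0.40, adjusted p = 0.000121). The log2 fold change of Cluster-5789.8464 was -6.33 without M replicate 1 and -7.76 without M replicate 2, and that of Cluster-5789.9842 was -8.62 without M replicate 1. Unigenes with near ID numbers, such as Cluster-5789.4224 and Cluster-5789.4226, may share reads, so their single values are uncertain.

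To place the adult females, an index was set to 0 at the JF mean and to 1 at the M mean of a unigene on the log2 scale of CPM + 0.5, with the midpoint at 0.5. The index describes levels and carries no test, because every comparison between stages shares libraries with M vs JF. For the down-regulated unigenes the adult females were mostly on the male side. Both PF and SF lay on the M side of the midpoint for 981 of the 1686 unigenes (58.2%) and both on the JF side for 403 (23.9%). PF alone was on the M side for 98 and SF alone for 204. Over all 10822 tested unigenes, both lay on the M side for 46.0% and both on the JF side for 30.3%. Over the 6044 tested unigenes that were lower in M, these shares were 45.8% and 33.8%. The median index among down-regulated unigenes was 0.78 in PF and 0.84 in SF. In 1196 of the 1686, both JF libraries were above all 6 libraries of adults, males included, whereas in 672 both M libraries were below all 6 female libraries. Over all 10822 tested unigenes these numbers were 2714 and 2028, and only the 6044 that were lower in M could be among them.

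For the up-regulated unigenes PF and SF differed. PF was on the M side for 40.8% of the 1467 unigenes and SF for 72.0%, with a median index of 0.27 in PF and 0.73 in SF. Over all tested unigenes, higher and lower in M together, the shares were 54.2% and 61.5%. With the adjusted p as the only threshold the median index of PF was 0.59, on the M side of the midpoint. Both were on the M side for 523 unigenes (35.7%) and both on the JF side for 335 (22.8%). Over the 4778 tested unigenes that were higher in M, these shares were 46.2% and 25.8%. PF was on the JF side and SF on the M side for 533 unigenes (36.3%), and the opposite was found for 76. The former class held 15.5% of all tested unigenes and 20.8% of the 4778 tested unigenes that were higher in M. The order of the classes of 533 and 523 unigenes turned in several settings, for example to 555 and 589 with DESeq2 size factors and to 454 and 620 without SF replicate 1. In 855 of the 1467 both M libraries were above all 6 female libraries, and in 762 both JF libraries were below all 6 adult libraries. Over all tested unigenes these numbers were 1573 and 2033, and only the 4778 that were higher in M could be among them. The SF libraries differed in this respect, with a median index of 0.80 in SF replicate 1 and 0.62 in SF replicate 2, while the PF libraries had 0.25 and 0.28. Without SF replicate 1 the unigenes with both adult stages on the JF side were 522 instead of 335, and those with PF on the M side and SF on the JF side were 116 instead of 76.

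The position of the adults differed with the size of the change in both directions. Size and index both come from the same M and JF libraries, so they are not independent, and no test was made. Among up-regulated unigenes from 2- to 4-fold, both adult female stages were on the M side for 49.2%, and the median index of PF was 0.66. From 4- to 16-fold this share was 20.5% with a median index of PF of 0.00114, and from 16- to 64-fold it was 9.56% with 0.02. The median index of SF was 0.76, 0.73 and 0.70 in the same 3 classes. For the 15 unigenes past 64-fold it was 0.45, on the JF side of the midpoint, and that of PF was 0.10. Of the 151 unigenes more than 16-fold higher in males, 95 had PF on the JF side and SF on the M side. The median level was 172 CPM for M and 7.42 CPM for JF, and the adults had 5.54 CPM (PF) and 81.7 CPM (SF). Both adult stages were on the JF side for 32 of the 151, where the medians were 116 CPM for M, 3.03 CPM for JF, 3.37 CPM for PF and 4.04 CPM for SF. In 106 of the 151 SF replicate 1 was on the M side, and in 94 SF replicate 2 was.

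Among down-regulated unigenes, both adult stages were on the M side for 59.5% of those from 2- to 4-fold and for 56.4% of those from 4- to 16-fold. Past 16-fold the order turned. Both adult stages were on the JF side for 20 of these 26 unigenes, and for all 7 past 64-fold. The 20 unigenes had a median of 0.557 CPM for M, 30.4 CPM for JF, 278 CPM for PF and 201 CPM for SF, so adult females were above juveniles. The remaining 6 included 4 with both adult stages on the M side, where the medians were 31.3 CPM for M, 810.1 CPM for JF, 39.0 CPM for PF and 77.1 CPM for SF. Level and position also moved together among down-regulated unigenes. Both adult stages were on the M side for 28.2% of those under 1 CPM, 48.6% at 1 to 10, 61.0% at 10 to 100, 78.2% at 100 to 1000 and 92.9% at 1000 CPM and over (13 of 14 unigenes). Among up-regulated unigenes the share fell with the level, from 54.3% under 1 CPM to 43.5%, 36.8% and 22.9% in the next 3 classes and 6.25% at 1000 CPM and over (1 of 16 unigenes). In both directions the share with both adult stages above the midpoint thus fell, among down-regulated unigenes from 47.9% under 1 CPM to 0% at 1000 CPM and over. The level was the mean of M and JF, which also set the midpoint. Level and position are therefore not independent, and these trends were not tested.

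**Figure D4:**
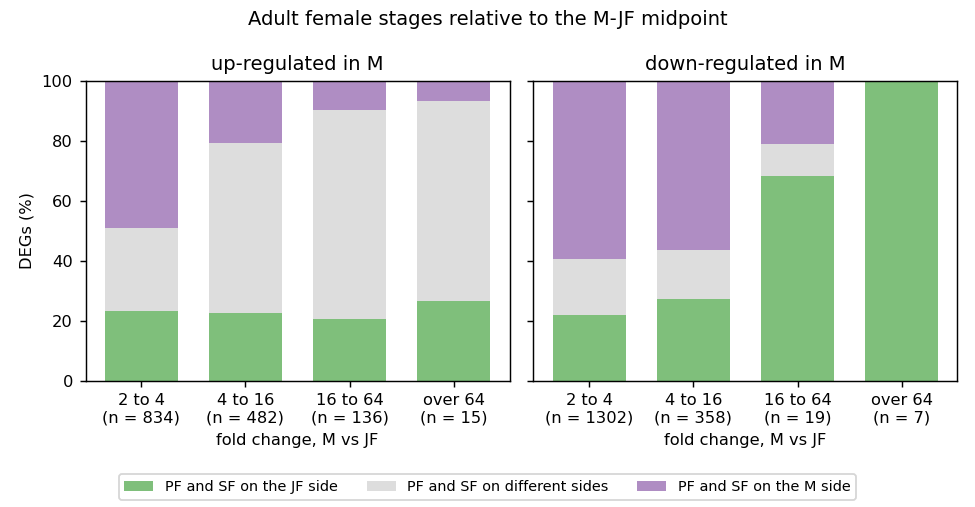
Stacked bars give the share of up-regulated (left) and down-regulated (right) unigenes of M vs JF (%), by size of change, for which PF and SF lay on the JF side (green), on different sides (grey) or on the M side (violet) of the midpoint between M and JF. The violet part falls from 49.2% to 9.56% between 2- to 4-fold and 16- to 64-fold up-regulation, and all 7 unigenes down-regulated past 64-fold are green. Size of change and midpoint come from the same M and JF libraries and are not independent.

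Few DEGs had both adult female means within 0.25 of an end of the index. Near M were 277 down-regulated unigenes (16.4%) and 116 up-regulated unigenes (7.91%). Near JF were 78 down-regulated unigenes (4.63%) and 72 up-regulated unigenes (4.91%). These shares were not computed over all tested unigenes, so whether they are particular to the DEGs is not known. Examples were taken as those with the largest changes among unigenes with at least 20 CPM in the higher stage.

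High in males alone were the trypsin-7-like unigene Cluster-5789.9553, described below, and 2 unigenes without a name. Cluster-5789.9257 had 3.19 and 2.83 CPM in JF against 211 and 219 CPM in M (log2 fold change 6.16, standard error 0.21, adjusted p = 4.62e-05). Cluster-5789.8859 had 7.43 and 5.36 CPM in JF against 431 and 433 CPM in M (log2 fold change 6.08, standard error 0.23, adjusted p = 6.5e-05). No adult female library exceeded 3.86 CPM for the former or 11.5 CPM for the latter.

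Low in juveniles alone were Cluster-5789.942, Cluster-5789.12615 and Cluster-5789.1260. Cluster-5789.942 had 2.41 and 2.49 CPM in JF, 42.5 and 39.8 CPM in M, 46.1 and 51.2 CPM in PF and 28.0 and 21.6 CPM in SF (log2 fold change 4.07, standard error 0.18, adjusted p = 6.56e-05). Cluster-5789.12615 had 2.72 and 1.68 CPM in JF, 31.0 and 31.8 CPM in M, and its adult female libraries ranged from 18.1 to 38.1 CPM (log2 fold change 3.85). Cluster-5789.1260 had 22.7 and 32.0 CPM in JF and 370 and 363 CPM in M (log2 fold change 3.74), but its PF libraries were 155 and 533 CPM.

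High in juveniles alone were Cluster-5789.6506, Cluster-5789.10456 and Cluster-5789.7379. Cluster-5789.6506 had 148 and 176 CPM in JF, 11.8 and 12.2 CPM in M, 13.4 and 10.6 CPM in PF and 12.1 and 11.6 CPM in SF, so that all 6 adult libraries were alike (log2 fold change -3.76, standard error 0.16, adjusted p = 6.56e-05). Cluster-5789.10456 had 24.6 and 30.0 CPM in JF and at most 2.38 CPM in any adult library (log2 fold change -3.52). Cluster-5789.7379 had 609 and 570 CPM in JF, 59.7 and 57.8 CPM in M, and its adult female libraries ranged from 67.1 to 127 CPM (log2 fold change -3.33).

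Low in males alone were Cluster-5789.9842, given above, Cluster-5789.7610 and Cluster-5789.7357. Cluster-5789.7610 had 85.7 and 51.1 CPM in JF, 10.1 and 9.71 CPM in M, and its adult female libraries ranged from 39.1 to 85.8 CPM (log2 fold change -2.79, standard error 0.30, adjusted p = 0.000685). Cluster-5789.7357 had 32.2 and 21.1 CPM in JF, 3.25 and 4.49 CPM in M, and its adult female libraries ranged from 17.3 to 26.5 CPM (log2 fold change -2.78, standard error 0.27, adjusted p = 0.00047).

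The unigenes with a name belong to a list that the study drew from the top up-regulated genes of males in these libraries. From these the study kept the ones that its qPCR found higher in males than in JF, PF and SF. The direction of the listed unigenes in these libraries is therefore not independent evidence. For Cluster-5789.11844 and Cluster-5789.11654, both given below, the mean CPM was higher in SF than in M. Of the 28 listed unigenes that were tested, 27 were higher in males and 0 lower, against 13.6% up-regulated over all tested unigenes. Their median log2 fold change was 4.15, from 1.46 to 7.69, beside -0.14 over all tested unigenes. Both adult female stages lay on the JF side for 15, PF on the JF side and SF on the M side for 11, and both on the M side for 2. The highest count among the settings with a library left out was 28 and the lowest 24.

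The sex regulator and the basement membrane gene both had adult females on the juvenile side. *Doublesex2* (Cluster-5789.12340), a relative of the *Doublesex1* factor, had 5.65 and 4.06 CPM in JF and 228 and 221 CPM in M. Its log2 fold change was 5.53 (standard error 0.30, adjusted p = 0.000104), and its index was -0.01 in PF and -0.05 in SF. *Laminin subunit gamma-3* (Cluster-5789.8159), a chain of a basement membrane protein, had the smallest change of the list. It had 273 and 266 CPM in JF and 743 and 745 CPM in M, a log2 fold change of 1.46 (standard error 0.11, adjusted p = 0.000219). Its adult females were below juveniles, with an index of -0.72 in PF and -1.18 in SF.

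All 3 unigenes of chitin metabolism were up-regulated in males and lowest in PF. Chitin synthase 2 (Cluster-5789.11830) had 66.8 and 58.4 CPM in JF, 519.8 and 520.4 CPM in M and an index of -1.01 in PF and 0.68 in SF (log2 fold change 3.06, standard error 0.47, adjusted p = 0.00285). Chitinase 8 (Cluster-5789.7417) had 52.6 and 51.7 CPM in JF and 1028 and 997 CPM in M (log2 fold change 4.28, standard error 0.51, adjusted p = 0.00114). Chitinase 5 (Cluster-5789.5191) had 207 and 173 CPM in JF and 1147 and 1140 CPM in M, with 16.1 and 12.9 CPM in PF and 538 and 96.3 CPM in SF. Its log2 fold change was 2.59 (standard error 0.75, adjusted p = 0.0322), and the call was lost without any 1 of the 4 libraries compared. The call of chitinase 5 was kept in a fit of those 4 libraries alone. In all 3 the SF libraries were farther apart than the JF libraries.

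The 6 protease unigenes were all up-regulated in males, and they fell into different patterns in the adults. The 3 trypsin-7 unigenes were high in males alone. Cluster-5789.9553 had 2.67 and 2.79 CPM in JF and 471 and 472 CPM in M (log2 fold change 7.43, standard error 1.21, adjusted p = 0.00413), with no adult female library above 7.42 CPM. Cluster-5789.9554 had 7.38 and 6.18 CPM in JF and 248 and 259 CPM in M (log2 fold change 5.23, standard error 0.69, adjusted p = 0.00187), and adult females had at most 9.87 CPM. Cluster-5789.3677 had 63.2 and 67.9 CPM in JF and 1152 and 1195 CPM in M (log2 fold change 4.16, standard error 0.59, adjusted p = 0.00224). Its adult females had at most 53.2 CPM, below juveniles.

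The serine protease ami-like unigene and the trypsin alpha-like unigene had SF on the male side instead. The serine protease ami-like unigene (Cluster-5789.2039) had 64.6 and 63.3 CPM in JF, 522 and 517 CPM in M, 5.53 and 4.44 CPM in PF and 404 and 116 CPM in SF (log2 fold change 3.02, standard error 0.57, adjusted p = 0.00654). The trypsin alpha-like unigene (Cluster-5789.11655) had 85.2 and 81.1 CPM in JF, 742 and 751 CPM in M, 29.8 and 31.4 CPM in PF and 541 and 239 CPM in SF (log2 fold change 3.17, standard error 0.37, adjusted p = 0.000964). The trypsin-like unigene Cluster-5789.7668 had 77.7 and 65.5 CPM in JF and 203 and 192 CPM in M (log2 fold change 1.47, standard error 0.35, adjusted p = 0.0146). Its call was lost without any 1 of these 4 libraries and kept in a fit of these 4 alone. It had at most 24.2 CPM in adult females. The trypsins are a gene family whose reads may have been split between members in counting, so their single values are uncertain.

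**Figure D5:**
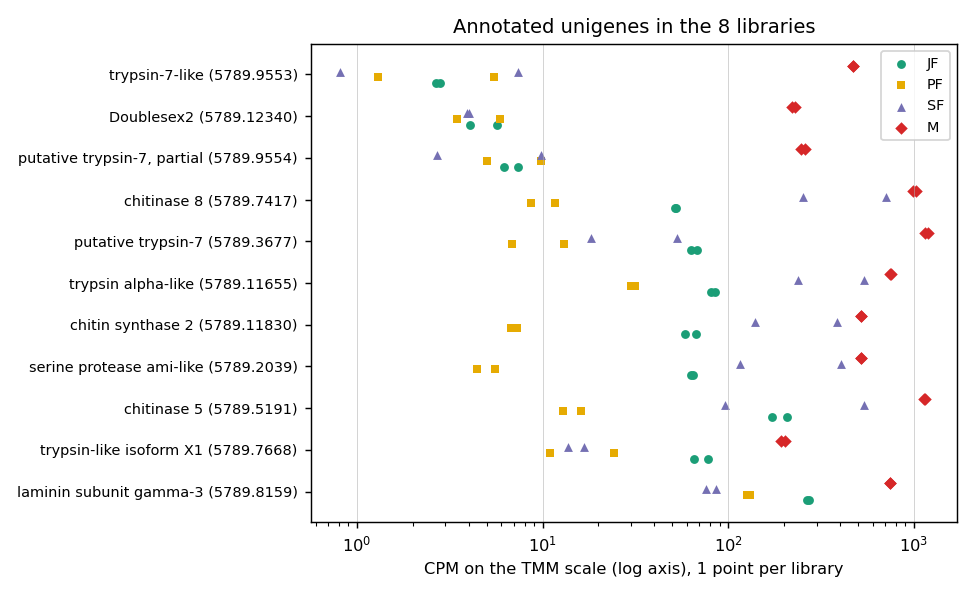
Points give CPM on the TMM scale (log axis) in each of the 8 libraries for the 11 unigenes with a named best match, ordered by log2 fold change in M vs JF. The M points (red) are above the JF points (green) in every row, the PF points (yellow) are below JF in 8 rows, and the SF points (violet) range from below the JF level to near the M level.

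Of the 17 uncharacterized unigenes of the list that were tested, 16 were up-regulated in males, with a median log2 fold change of 4.32. Cluster-5789.11654 had the largest change, with counts of 10 and 31 in JF (0.523 and 1.15 CPM) and 181 and 179 CPM in M (log2 fold change 7.69, standard error 0.96, adjusted p = 0.00157). The SF libraries had 384 and 165 CPM and those of PF 0.61 and 3.19 CPM, so this unigene separated M and SF from JF and PF. Without JF replicate 2 the log2 fold change of Cluster-5789.11654 was 8.41. Cluster-5789.11701 had 17.3 and 10.9 CPM in JF and 1416 and 1408 CPM in M, with at most 73.5 CPM in adult females (log2 fold change 6.65, standard error 0.37, adjusted p = 0.000107). Cluster-5789.11774 had 3.45 and 4.21 CPM in JF and 358 and 346 CPM in M, with SF at 198 and 92.5 CPM and PF at 4.76 and 3.46 CPM (log2 fold change 6.52, standard error 0.45, adjusted p = 0.000212).

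The smallest changes among the uncharacterized unigenes were those of Cluster-5789.6049, Cluster-5789.6490 and Cluster-5789.11844. Cluster-5789.6049 had 46.9 and 30.2 CPM in JF and 200 and 203 CPM in M (log2 fold change 2.39, adjusted p = 0.000829), with adult females at most at 12.2 CPM. Cluster-5789.6490 had 363 and 320 CPM in JF and 1639 and 1655 CPM in M (log2 fold change 2.27, adjusted p = 0.0114), with 1712 CPM in SF replicate 1, 551 CPM in SF replicate 2 and at most 46.9 CPM in PF. Its call was lost without JF replicate 1 or JF replicate 2 and kept on the 4 libraries of M and JF alone. Cluster-5789.11844 was not called, with 8.11 and 12.1 CPM in JF and 32.0 and 31.4 CPM in M (log2 fold change 1.64, standard error 0.86, adjusted p = 0.164). It was called without PF replicate 1 (adjusted p = 0.0138), without PF replicate 2 (adjusted p = 0.015) and on the 4 libraries of M and JF alone (adjusted p = 0.00184). The adult females were far above both stages and far apart, with 27.2 and 182 CPM in PF and 1832 and 3506 CPM in SF.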

How the data were processed

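The authors made poly-A libraries, read both ends (HiSeq), assembled the reads with Trinity (min_kmer_cov 2) and deposited an unscaled estimated count per unigene and library. The sources used here do not name the counter. Estimated counts were rounded. A robust quasi-likelihood model (edgeR 4.0.16 with limma 3.58.1 in R 4.3.3, TMM scaling, low-count filter by stage removing 292 of 11114 unigenes) took stage as its single factor over the 8 libraries, leaving 4 residual degrees of freedom. Standard errors are the log2 fold change divided by the square root of F. The test was checked on simulated counts. 0 unigene IDs matched the reference gene table, so names are best matches given by the study.

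Named unigenes were those the study listed and the 4 most abundant uncalled ones. Among the DEGs of each direction, the 4 with the largest fold change and the 4 with the largest CPM difference were added. So were 3 per direction with adult females near JF and 3 with adult females near M. Members, lists and rules were chosen with earlier results of these data known. Alternatives covered scaling, filters, DESeq2 1.42.0, thresholds, the fitted libraries, the replicate block, pseudocounts and single libraries left out. Summing both male libraries was added after their values were seen.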

Additional observations from a re-analysis of the deposited data

How the results depend on the processing

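With the adjusted p alone, 2338 unigenes were up-regulated and 3234 down-regulated, and both adult stages lay on the JF side for 506 and 970 of them and on the M side for 1078 and 1697. With the 2-fold threshold inside the test (edgeR's glmTreat) the counts were 815 and 725, with 156 and 176 on the JF side and 241 and 446 on the M side. With 1 library left out, up-regulated DEGs were 1224 to 1720, down-regulated DEGs 1333 to 1701, and unigenes with both adult stages on the JF side 239 to 522 among the up-regulated and 324 to 393 among the down-regulated. No call among the DEGs reversed its direction under any refit (0 unigenes). Of the log2 fold changes of named unigenes under the refits, 870 kept their side of the threshold, 23 lost and 7 gained a call, and 0 changed sign. Requiring both libraries of a stage on the same side of the midpoint left 35 up-regulated unigenes with PF on the M side and SF on the JF side. DESeq2 size factors gave 53.8% up-regulated DEGs and library size only 43.0%. Deviations from the stage means correlated with r = 0.0294 between same-numbered JF and M libraries over 6086 unigenes, and with -0.071 to 0.167 between the other pairs of stages. The numbers were thus not taken as pairs, and with the replicate block 1455 unigenes were up-regulated and 1649 down-regulated, among them 1429 of the 1467 and 1639 of the 1686 DEGs. Depth limits unigenes under 1 CPM, and the absence of counts of 0 hides unigenes silent in a stage.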

Other observations

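The values in this part were chosen after they had been seen. Some wide gaps between M and JF were not called. Among unigenes with a mean over M and JF of at least 100 CPM, 16 had an absolute log2 fold change over 2 without a call. In 11 of these JF replicate 2 exceeded JF replicate 1 by a factor of 8.1 to 18.3, and all 11 were higher in males. The SF libraries were far apart too in the examples that follow, and the part of either spread in the missing calls was not tested. Cluster-5789.10188 had 40.3 and 652 CPM in JF, 8812 and 8908 CPM in M, 16073 and 8334 CPM in PF and 7310 and 693 CPM in SF (log2 fold change 4.68, standard error 1.66, edgeR adjusted p = 0.0599). Cluster-5789.10185 had 34.2 and 472 CPM in JF, 3477 and 3534 CPM in M, 20546 and 12071 CPM in PF and 5995 and 1110 CPM in SF (log2 fold change 3.79, edgeR adjusted p = 0.0644). Both were thus lower in every JF library than in any adult library.

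The ID of 10198 tested unigenes belonged to a single assembly cluster, and 624 belonged to other clusters. The latter had a lower median level (4.33 CPM against 30.2 CPM). They were called in 33.3% of cases, 74 up-regulated and 134 down-regulated, against 28.9% in the main cluster with 1393 and 1552. No test of this difference was made.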
